A study of Rattus norvegicus with 6 samples.

Results

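Genes of the LIF and oncostatin M branch of interleukin-6 family signalling were compared between cultures of rat oligodendrocytes after differentiation and cultures of their precursors. The set holds 10 of the 37991 genes of the deposited table, taken by symbol: the ligands Lif, Il6 and Cntf, the receptor chains Lifr, Osmr, Il6st and Cntfr, the transcription factor Stat3, and its target genes Socs3 and Serpina3n. The set was chosen by the read counts of Lif, Socs3 and Serpina3n, which had been seen to be lower in differentiated cells in this same comparison. The values of these 3 genes are therefore given as a description, with no test. The other 7 genes joined as relatives or partners, and their p-values come from the fit across all genes.

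The study has 6 RNA libraries of cultured cells from SD rats, 3 made after differentiation and 3 made before it, with replicates 1, 2 and 5 in each group. Differentiated cells came from precursors kept in Raff medium, whose growth factors were then changed. Precursors grew in the same medium and are the control condition. The titles place replicates 1 and 2 at day 3 (differentiated) and day 0 (precursor). No genetic change is labelled, and neither the growth factors nor the age of the animals is given in the sources used here.

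Cytokines of this family bind receptor complexes that share the chain gp130, encoded by Il6st. LIF pairs gp130 with LIFR, oncostatin M pairs it with OSMR, and CNTF and IL-6 first bind receptors of their own, CNTFR and IL-6R. The complexes activate JAK kinases, which phosphorylate STAT3, and STAT3 induces Socs3, whose protein binds gp130 and JAK and damps the signal. In the nervous system this pathway is known for driving the astrocyte gene Gfap in neural precursors, for reactive astrocytes, and for LIF and CNTF as survival factors of oligodendrocytes.

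Library totals ran from 55522101 to 79898629 reads. Replicate 1 of both groups stood apart: on the second principal component of log2 CPM, which held 25.3% of the variance, these libraries lay at 73.5 (differentiated) and 41.8 (precursor), while the other 4 lay between -55.9 and -3.6. The oligodendrocyte label of the differentiated libraries was borne out by its markers. All 8 myelinating oligodendrocyte markers tested rose, and their summed level was 17980 to 21240 CPM in differentiated libraries against 1333 to 2150 CPM in precursor libraries. Genes of other glia were present too. The 9 astrocyte markers summed to 7461 to 7701 CPM in differentiated and 4191 to 5890 CPM in precursor libraries, with none at 0 throughout, and the 10 microglia markers to 390.4 to 747.9 CPM in differentiated and 398.9 to 1006 CPM in precursor libraries, again with none at 0. Markers of fibroblasts and pericytes summed to 42.51 to 186.7 CPM in differentiated and 75.7 to 301.5 CPM in precursor libraries, with Rgs5 at 0 in all, and those of endothelium to 1.581 to 2.076 CPM in differentiated and 2.152 to 3.612 CPM in precursor libraries, with Cldn5 at 0 in all. The 5 neuron markers summed to 119.4 to 155.3 CPM in differentiated and 109.9 to 234.1 CPM in precursor libraries. By edgeR 1 neuron marker was lower, Stmn2 (edgeR adjusted p = 0.0268), and 0 were higher, where 3.21% of all genes fell and 5.65% rose. The 7 precursor markers did not set the groups apart. They summed to 1444 to 2050 CPM in differentiated and 1197 to 2149 CPM in precursor libraries, and edgeR called 0 of them. At an unadjusted p under 0.05, and by DESeq2, 2 of them were higher, where 12.4% and 7.44% of all genes were higher. With the replicate number as a block 4 were higher and 1 lower, where 14.9% of all genes were higher and 15.7% lower. Without both replicate 1 libraries 2 were higher and 1 lower, where 8.48% of all genes were higher and 8.11% lower. RNA came from whole cultures, where fewer cells of a type and less RNA per cell cannot be told apart, and the part of these cells in the results below was not tested.

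Osmr fell, while the other receptor chains Il6st, Lifr and Cntfr did not pass the test. Lif, Socs3 and Serpina3n, the genes the set was built on, averaged 8.63-fold, 3.29-fold and 16.3-fold more CPM in precursors than in differentiated cells. Of the 10 genes, 9 passed the filter on low counts and Il6 did not. Of the 6 tested genes that were not chosen for being lower, 1 fell and 0 rose at an edgeR adjusted p under 0.05, where 3.21% of all 17797 genes tested fell and 5.65% rose. At an unadjusted p under 0.05, 2 were lower and 0 higher, where 10.7% of all genes tested were lower and 23.1% passed in either direction. By DESeq2, 2 were lower and 0 higher, where 6.11% of 19601 genes were lower, 7.44% higher and 13.6% called in either direction. The median log2 fold change of these 6 was -0.36, beside -0.04 over all genes tested. The groups did not overlap for 2 of these 6, Osmr and Stat3, a share near that of all genes tested (30.3%). With the replicate number as a block, 3 of the 6 fell (Osmr, Stat3 and Lifr), where 30.6% of all genes were called and 15.7% fell. Without both replicate 1 libraries 3 fell (Osmr, Stat3 and Cntf), where 16.6% were called and 8.11% fell. Levels below are reads scaled to library size by the trimmed mean of M values (CPM), and log2 fold changes are differentiated over precursor cells with their standard error (SE). The labels do not say that replicates are separate cultures, so each p-value reflects the spread of these libraries alone, which may be technical.

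**Figure D1:**
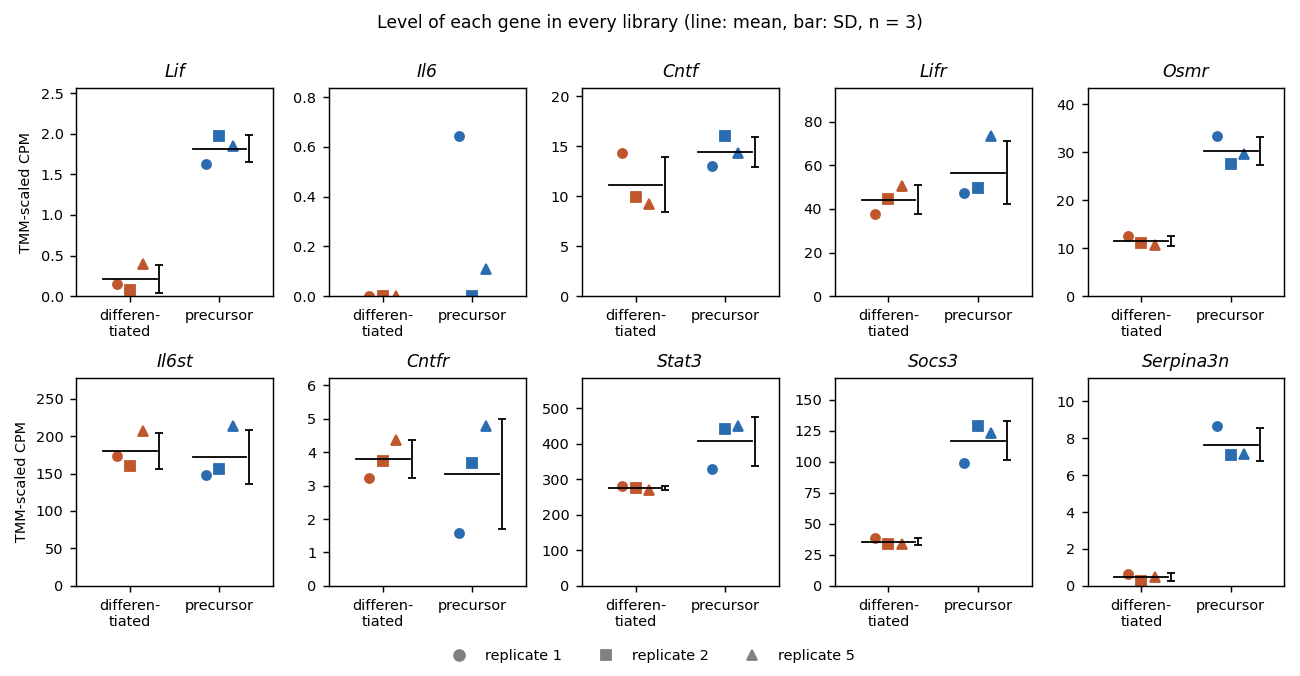
Each panel plots 1 gene, with TMM-scaled CPM on a linear axis from 0 and 1 point per library, differentiated on the left and precursor on the right. Lines are means and bars SDs of 3 libraries, omitted for Il6. Lif, Osmr, Stat3, Socs3 and Serpina3n show no overlap between the groups, while the other genes overlap.

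Lif (60584) encodes leukemia inhibitory factor, a secreted cytokine. It had 0.153, 0.0775 and 0.4 CPM in differentiated libraries 1, 2 and 5, against 1.63, 1.97 and 1.85 CPM in precursor libraries 1, 2 and 5. The groups did not overlap, and relative to their mean the differentiated values (0.21 ± 0.169 CPM, SD, n = 3) were spread more widely than the precursor values (1.82 ± 0.172 CPM). The differentiated level rested on few reads, 11, 5 and 22, beside 104, 141 and 133 in precursors. The log2 fold change was -3.12 (SE 0.63), and the ratios of same-numbered libraries were -3.41, -4.67 and -2.21 on the log2 scale. Without differentiated replicate 5, which held the most Lif reads of its group, the fold change was -3.95.

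The length-scaled level of Lif followed another order among precursors than its reads. Deposited TPM, which divides reads by transcript length, was 0.593 in precursor 1 but 1.94 and 1.7 in precursors 2 and 5, while their reads differed little. The number of reads behind 1 TPM of Lif, relative to the median gene of the same library, was 1.11, 1.29 and 1.08 in differentiated 1, 2 and 5, and 1.04, 0.45 and 0.581 in precursors 1, 2 and 5. That is a 2.87-fold range between libraries, wider than in 99.9% of the 14891 genes with at least 20 reads in every library, for which the median range was 1.01-fold. Lif is not among those genes, with 11 and 5 reads in differentiated 1 and 2. Its highest value, 1.29, came from the library with 5 reads. The table lists 4 transcripts for Lif, and which of them the reads were assigned to was not analysed here. The groups did not overlap on either scale.

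Il6 (24498), the cytokine that gives the family its name, was near the limit of detection. It had 0 reads in each differentiated library and 41, 0 and 8 reads in precursors 1, 2 and 5. A count of 0 allows up to 0.0418 to 0.0546 CPM in the differentiated libraries, counting error only. Most of its reads came from a single library, and a precursor library also had none, so the groups overlapped and no fold is given. A lone 0 may be a failed estimate, since 115 genes had 0 reads in 1 library and at least 20 in each of the other 5.

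Cntf (25707) encodes ciliary neurotrophic factor, a cytokine without a classical secretion signal that glia make. It had 14.3, 9.96 and 9.25 CPM in differentiated 1, 2 and 5, against 13.0, 16.0 and 14.3 CPM in precursors 1, 2 and 5. Differentiated 1 lay among the precursor values, and the other differentiated libraries lay below them. At a log2 fold change of -0.37 (SE 0.21) the difference missed the threshold, with an edgeR adjusted p of 0.348 and 2 of 3 same-numbered pairs lower. With replicate 1 of each group left out, an alternative added once the data had been seen, the fold change was -0.65 and the edgeR adjusted p 0.0341.

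Osmr (310132) encodes the receptor chain that oncostatin M uses together with gp130. It had 12.6, 11.1 and 10.7 CPM in differentiated 1, 2 and 5, against 33.4, 27.6 and 29.7 CPM in precursors 1, 2 and 5. All differentiated libraries lay below all precursor libraries, with a narrow spread inside each group. Osmr fell by 1.40 on the log2 scale (SE 0.15) with an edgeR adjusted p of 0.00189, in 3 of 3 pairs. The call held in each fit that left out 1 library, at fold changes from -1.46 to -1.31 and an edgeR adjusted p of at most 0.017, and without both replicate 1 libraries (-1.39, edgeR adjusted p = 0.00144).

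Lifr (81680) encodes the chain that LIF and CNTF complexes use. It had 37.6, 44.7 and 50.7 CPM in differentiated 1, 2 and 5, against 47.2, 49.4 and 73.4 CPM in precursors 1, 2 and 5. The ranges overlapped, although each differentiated library was below the precursor library of its own number. Its log2 fold change of -0.36 (SE 0.20) had an edgeR adjusted p of 0.352 and missed the threshold. The replicate block brought it past the threshold (-0.34, edgeR adjusted p = 0.0351), in the fit where 15.7% of all genes fell. In the RefSeq gene table of the assembly GRCr8, Lifr and Osmr lie side by side, with 1 pseudogene and 0 protein-coding genes between them.

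Il6st (25205) encodes gp130, the chain all these cytokines share. It had 173, 159.6 and 206 CPM in differentiated 1, 2 and 5, against 148, 156 and 214 CPM in precursors 1, 2 and 5. Replicate 5 was highest in both groups and the ranges overlapped almost entirely. The log2 fold change was 0.06 (SE 0.17, edgeR adjusted p = 0.884) and changed sign with the scaling, at -0.10 with library size alone. A long noncoding RNA of the reference table overlaps Il6st, and since the strand setting of the counting is not given in the sources used here, its reads cannot be told apart from those of Il6st.

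Cntfr (313173) encodes the CNTF-binding chain, which is anchored to the membrane by a lipid. It had 3.23, 3.75 and 4.37 CPM in differentiated 1, 2 and 5, against 1.57, 3.69 and 4.79 CPM in precursors 1, 2 and 5. Precursor 1 was low and the other libraries of both groups overlapped. The log2 fold change was 0.17 (SE 0.41, edgeR adjusted p = 0.85), and -0.15 without precursor 1.

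Receptor chains were also set against each other inside each library, on the length-scaled TPM. Osmr reached 0.108, 0.091 and 0.0702 of the Il6st level in differentiated 1, 2 and 5, against 0.3, 0.227 and 0.168 in precursors 1, 2 and 5. Lifr reached 0.3, 0.408 and 0.349 of Il6st in differentiated libraries, against 0.442, 0.462 and 0.499 in precursors. Neither ratio overlapped between the groups. The exact two-sided permutation test gave p = 0.1 for each, the smallest that 3 against 3 libraries allow, and 0.2 after adjustment over the 4 receptor ratios tested. Osmr over Lifr was 0.359, 0.223 and 0.201 in differentiated 1, 2 and 5, against 0.678, 0.491 and 0.338 in precursors 1, 2 and 5 (exact permutation p = 0.2). On this ratio differentiated 1 lay above precursor 5, so the groups overlapped, while the ratio of reads did not overlap. Cntfr over Il6st averaged 0.0907 ± 0.00996 in differentiated and 0.0726 ± 0.0274 in precursor libraries (SD, n = 3 each, exact permutation p = 0.5).

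**Figure D2:**
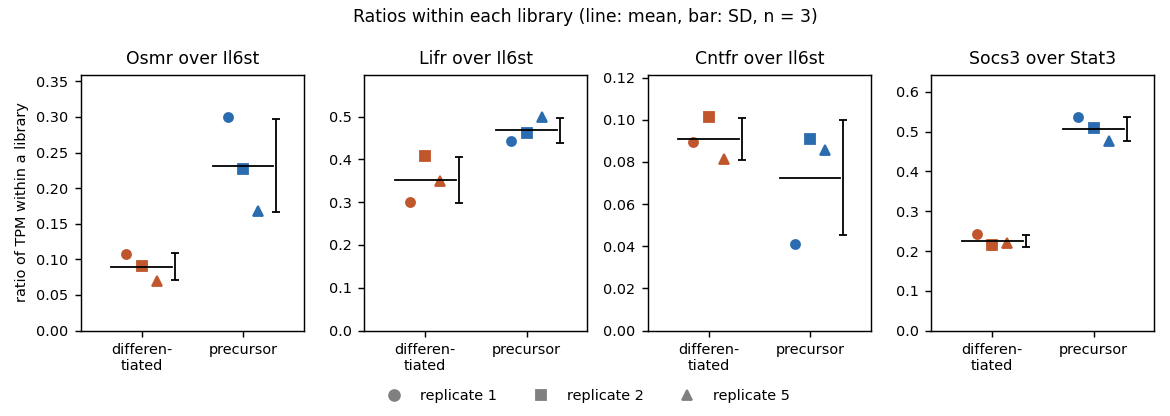
Each panel plots a ratio of 2 TPM values of the same library on a linear axis from 0, differentiated on the left and precursor on the right, with 1 point per library, lines for means and bars for SDs of 3 libraries. Osmr over Il6st, Lifr over Il6st and Socs3 over Stat3 do not overlap between groups, while Cntfr over Il6st does. Socs3 was chosen for being lower, so its ratio is shown as a description and was not tested.

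Stat3 (25125) encodes the transcription factor that these receptors activate. It had 281, 275 and 269.8 CPM in differentiated 1, 2 and 5, against 328, 441 and 451 CPM in precursors 1, 2 and 5. The differentiated libraries lay within a narrow range, all below the precursors, of which precursor 1 was lowest. The log2 fold change of -0.56 (SE 0.14, lower in 3 of 3 pairs) missed the threshold at an edgeR adjusted p of 0.0507. It passed with the replicate block (-0.55, edgeR adjusted p = 0.0106), without precursor 1 (-0.69, 0.00861) and without both replicate 1 libraries (-0.71, 0.00414), and missed it by more without any of the other libraries (up to 0.185).

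**Figure D3:**
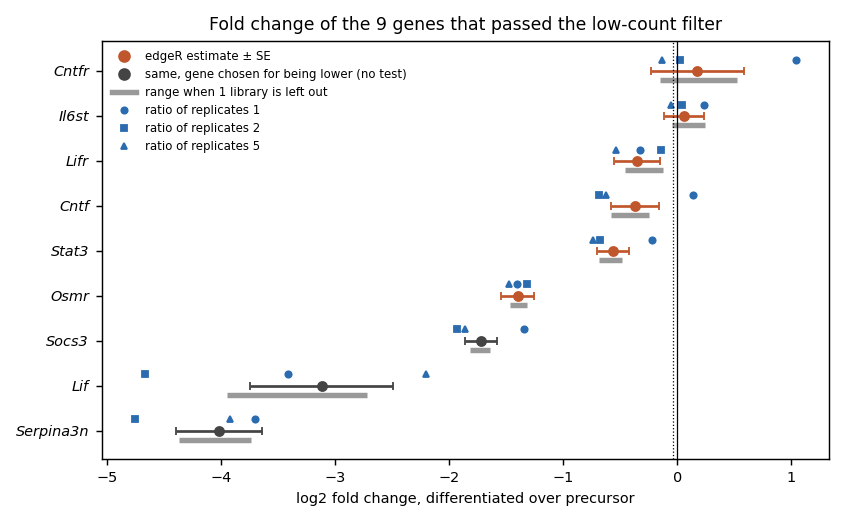
The horizontal axis is the log2 fold change, differentiated over precursor, of the 9 genes that passed the low-count filter. Large points are edgeR estimates with their SE, grey bars the range when 1 library is left out, small points the ratios of same-numbered libraries, and the dotted line the median of all genes. The estimates run from -4.02 for Serpina3n to 0.17 for Cntfr, and the bars of Il6st and Cntfr cross 0.

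Socs3 (89829) encodes the feedback inhibitor of gp130 signalling and is among the best known STAT3 target genes. It had 39.0, 33.9 and 33.9 CPM in differentiated 1, 2 and 5, against 99.1, 129 and 123 CPM in precursors 1, 2 and 5. The groups were widely separated, and precursor 1 was the lowest precursor, as it was for Stat3. The log2 fold change was -1.72 (SE 0.14), with same-numbered ratios of -1.35, -1.93 and -1.86. Relative to Stat3 in the same library, on the TPM scale, Socs3 stood at 0.242, 0.215 and 0.219 in differentiated 1, 2 and 5, against 0.536, 0.51 and 0.476 in precursors 1, 2 and 5. The groups did not overlap on this ratio. Since Socs3 was chosen for being lower, this is a description and no further support, and the ratio was not tested.

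Serpina3n (24795) encodes a secreted serine protease inhibitor of the acute-phase type, known in mouse as a marker of reactive astrocytes. It had 0.669, 0.263 and 0.473 CPM in differentiated 1, 2 and 5, against 8.68, 7.11 and 7.15 CPM in precursors 1, 2 and 5. Its reads numbered 48, 17 and 26 in differentiated libraries and 553, 509 and 515 in precursors, so that it stayed under 1 CPM in each differentiated library and was evenly present in precursors. The log2 fold change was -4.02 (SE 0.38), with same-numbered ratios of -3.70, -4.75 and -3.92. The other Serpina3 entries of the table, Serpina3c (24794) and Serpina3m (299276), had 0 reads in all 6 libraries. These are close relatives, and how reads that fit several of them were counted is not given in the sources used here.

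RefSeq promoter windows were searched for letters that STAT proteins bind, TTCNNNGAA, which read the same on both strands. Windows of the assembly GRCr8, from 250 bases before to 50 bases after an annotated transcript start, were matched for 8 of the 10 genes: Cntf, Il6st, Osmr, Lifr, Il6, Serpina3n, Stat3 and Socs3. The letters occurred in 1 of these 8 windows, that of Serpina3n, as TTCCCAGAA, whose first base lies 123 bases before the start. They occurred in 8.87% of all 33469 windows and in 7.17% of the 14723 windows of genes tested. The start used for a window was the 5′ end of the RefSeq gene entry for Serpina3n, Cntf and Il6 alone. It lay inside the entry by 154 bases for Stat3, 241 for Osmr, 1207 for Socs3, 11360 for Il6st and 11602 for Lifr, so the windows of Socs3, Il6st and Lifr do not reach the outermost start of these genes. Of all windows, 57.8% lay at the 5′ end. The window with the match and that of Osmr, the receptor gene that fell, are shown. Capitals mark the match, and the window of Osmr holds none.
Serpina3n, GRCr8 chr6:129088142-129088441, plus strand: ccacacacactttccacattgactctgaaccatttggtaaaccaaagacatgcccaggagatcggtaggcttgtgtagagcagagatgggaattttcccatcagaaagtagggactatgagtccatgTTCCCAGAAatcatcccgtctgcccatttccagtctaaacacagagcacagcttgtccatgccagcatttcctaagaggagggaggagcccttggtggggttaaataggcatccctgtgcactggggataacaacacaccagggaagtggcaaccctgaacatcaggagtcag
Osmr, GRCr8 chr2:57688512-57688811, minus strand: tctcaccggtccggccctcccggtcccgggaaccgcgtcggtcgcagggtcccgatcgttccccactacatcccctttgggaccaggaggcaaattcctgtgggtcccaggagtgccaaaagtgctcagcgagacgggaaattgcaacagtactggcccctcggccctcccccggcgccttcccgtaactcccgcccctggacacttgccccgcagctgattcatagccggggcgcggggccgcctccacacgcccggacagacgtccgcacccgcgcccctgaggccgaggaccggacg
A match describes the letters of a window and is not a measured binding site, and the absence of a match says only that these letters are not in this window.

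Levels were also ordered per length, by deposited TPM. In differentiated libraries the order was Stat3 (59.7 ± 6.05 TPM, SD, n = 3), Il6st (22.6 ± 5.17), Socs3 (13.4 ± 0.708), Cntf (9.62 ± 1.09), Lifr (7.97 ± 2.19), Cntfr (2.02 ± 0.323), Osmr (1.96 ± 0.0812), Serpina3n (0.212 ± 0.0764), Lif (0.0738 ± 0.0698) and Il6, which is listed at 0. Cntf and Lifr overlapped there, as did Cntfr and Osmr, and Serpina3n and Lif, while the other neighbours did not. In precursors it was Stat3 (108 ± 34.2 TPM), Socs3 (54.1 ± 14.3), Il6st (26.7 ± 10.6), Cntf (15.3 ± 3.39), Lifr (12.7 ± 5.84), Osmr (5.75 ± 0.675), Serpina3n (4.25 ± 0.442), Cntfr (2.05 ± 1.28), Lif (1.41 ± 0.719) and Il6. Neighbours that overlapped in precursors were Socs3 and Il6st, Cntf and Lifr, and Cntfr and Lif. Socs3 thus stood, by its mean, below Il6st in differentiated cells and above it in precursors, where the 2 overlapped. The means of Osmr and Serpina3n stood below that of Cntfr in differentiated cells and above it in precursors. In differentiated cells Osmr and Cntfr overlapped, so their order there is not settled. By mean TPM among the genes tested, differentiated cells had Stat3 at percentile 91.8, Socs3 at 70.7, Osmr at 36.2, Serpina3n at 12.5 and Lif at 4.83. Precursors had Stat3 at percentile 95.1, Socs3 at 89.8, Osmr at 50.3, Serpina3n at 44.6 and Lif at 29.2.

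**Figure D4:**
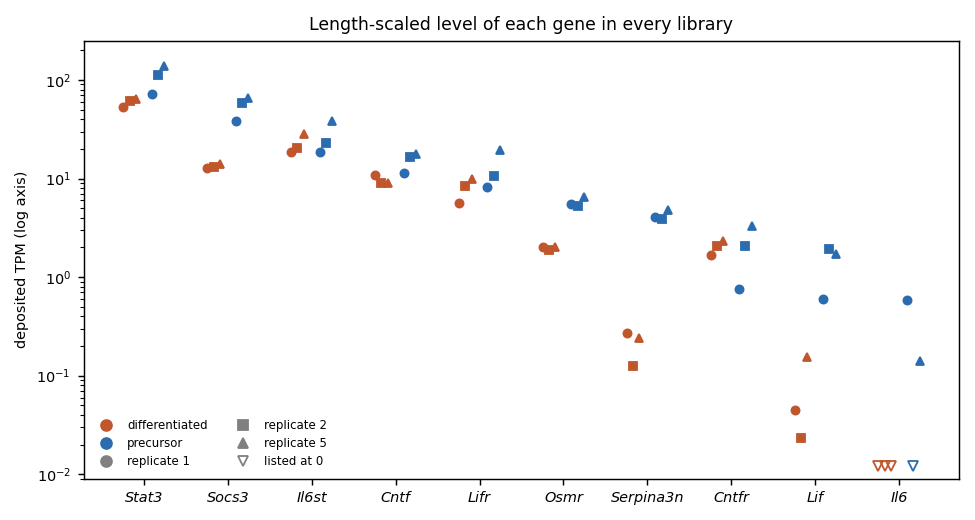
The vertical log axis gives deposited TPM of each gene in every library, differentiated to the left of precursor, with genes ordered by their precursor mean. Open triangles at the lower edge are values listed at 0. Stat3 is highest in both groups, and Lif and Serpina3n reach under 0.3 TPM in differentiated libraries.

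The other ligands and receptors of the family were low or did not pass the test. Of 8 other ligand genes, 5 were tested and edgeR called 0, with a median log2 fold change of -0.50. At an unadjusted p under 0.05, and by DESeq2, 1 was lower. Osm (289747), the oncostatin M gene and the neighbour of Lif in the reference table, had 3.01, 1.36 and 0.837 CPM in differentiated 1, 2 and 5, against 4.03, 1.79 and 1.6 CPM in precursors 1, 2 and 5 and did not pass (log2 fold change -0.50, SE 0.57, with an edgeR adjusted p of 0.663). Replicate 1 was highest in both groups and the ranges overlapped. Clcf1 (365395), a CNTFR ligand, had 0.975, 0.62 and 1.2 CPM in differentiated against 3.0, 2.4 and 1.71 CPM in precursor libraries, and missed the threshold in edgeR without the block. Its log2 fold change was -1.35 (SE 0.38) and its edgeR adjusted p 0.0772, while the p was 0.0344 with the block and 0.0199 by DESeq2. Il11 (171040) had a log2 fold change of -1.41 (SE 1.15) and Ctf1 (29201) of 0.82 (SE 0.66). Ctf2 (293515) and Il31 (690028) had 0 reads in all libraries, and Il27 (365368) was under the filter.

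Among the 4 other receptor genes, 3 were tested and edgeR called 0, as it did at an unadjusted p under 0.05 and as DESeq2 did, at a median log2 fold change of 0.14. Il6r (24499), the IL-6 binding chain, averaged 13.9 ± 4.64 CPM in differentiated and 12.7 ± 6.12 CPM in precursor cells (SD, n = 3 each), a log2 fold change of 0.14 (SE 0.37) with an edgeR adjusted p of 0.873. Il11ra1 (245983) averaged 26.5 ± 0.104 CPM in differentiated and 19.4 ± 6.49 CPM in precursor cells, a log2 fold change of 0.45 (SE 0.25) with an edgeR adjusted p of 0.336. Il27ra (288905) had a log2 fold change of -0.26 (SE 1.17). Il31ra (688622), the partner of OSMR in the IL-31 receptor, had 0 reads in all libraries.

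Among signalling genes downstream, the shares called were near the 8.86% of all genes tested. Of 10 JAK, other STAT and SHP2 genes tested, 1 rose and 0 fell, at a median log2 fold change of -0.05. The gene that rose was Ptpn11 (25622), which encodes the phosphatase SHP2 that links gp130 to the ERK pathway, at 514 ± 71.4 CPM in differentiated and 241 ± 20.6 CPM in precursor cells (log2 fold change 1.09, SE 0.14, with an edgeR adjusted p of 0.00377, higher in 3 of 3 pairs). With the replicate block, where 30.6% of all genes were called, 2 rose and 2 fell. Of 14 genes that restrain the pathway, 1 fell and 0 rose, at a median of -0.34. Socs2 (84607), a feedback inhibitor best known from growth hormone signalling, averaged 3.42 ± 0.776 CPM in differentiated and 12.5 ± 1.95 CPM in precursor cells (log2 fold change -1.88, SE 0.24, with an edgeR adjusted p of 0.00407, in 3 of 3 pairs). With the block 4 of these genes fell and 1 rose.

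Of 21 other STAT3 target genes tested, 3 fell and 1 rose by edgeR, where 3.21% of all genes fell and 5.65% rose. Their median log2 fold change was -0.57, while DESeq2 called 9 lower and 2 higher, where 6.11% of genes were lower and 7.44% higher. A2m (24153), an acute-phase protease inhibitor of the rat, averaged 249 ± 39.3 CPM in differentiated and 474 ± 26.5 CPM in precursor cells (log2 fold change -0.93, SE 0.14, with an edgeR adjusted p of 0.00763). Birc5 (64041), which encodes survivin and is also a gene of mitosis, fell by 0.80 on the log2 scale (SE 0.11, edgeR adjusted p = 0.00561). Cebpd (25695), a transcription factor of the acute-phase response, averaged 34.1 ± 8.86 CPM in differentiated and 64.1 ± 6.09 CPM in precursor cells (log2 fold change -0.91, edgeR adjusted p = 0.03), a call lost without any single library other than differentiated 1 (edgeR adjusted p up to 0.126). Pim3 (64534), a survival kinase, went the other way at 137 ± 4.84 CPM in differentiated and 40.6 ± 3.22 CPM in precursor cells (log2 fold change 1.75, SE 0.11, with an edgeR adjusted p of 0.000291). Gfap (24387), the astrocyte filament gene, averaged 5939 ± 213 CPM in differentiated and 4072 ± 817 CPM in precursor cells at a log2 fold change of 0.54 (SE 0.16). Its edgeR adjusted p was 0.0849, while it was 0.0138 with the block and 0.0307 by DESeq2. With the block 13 of these genes fell and 2 rose, in a fit where 15.7% of all genes fell and 14.9% rose, and without both replicate 1 libraries 13 fell and 1 rose, where 8.11% of all genes fell and 8.48% rose.

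Genes of reactive astrocytes that edgeR called without the block were lower, while Gfap was higher by DESeq2 and with the block. Of 22 tested, 4 fell and 0 rose by edgeR, where 3.21% of all genes fell and 5.65% rose. Their median log2 fold change was -0.89, while DESeq2 called 8 lower and 1 higher, where 6.11% of genes were lower and 7.44% higher. This list shares Gfap, Vim, Timp1 and Lcn2 with the list of STAT3 targets. Hspb1 (24471), a small heat shock protein gene, averaged 9.59 ± 0.478 CPM in differentiated and 52.9 ± 12.3 CPM in precursor cells (log2 fold change -2.46, SE 0.20, with an edgeR adjusted p of 0.000686, in 3 of 3 pairs). Cp (24268), which encodes the copper carrier ceruloplasmin, had a log2 fold change of -1.95 (SE 0.47, edgeR adjusted p = 0.047), S100a10 (81778) of -1.58 (SE 0.26, 0.0119) and Cd44 (25406), a hyaluronan receptor, of -0.85 (SE 0.14, 0.0101). The call of Cp was lost without any single library other than differentiated 1, and those of S100a10 and Cd44 without differentiated 2 or differentiated 5. With the block 14 fell and 1 rose, where 15.7% of all genes fell and 14.9% rose. Without both replicate 1 libraries 12 fell and 0 rose, where 8.11% of all genes fell and 8.48% rose. Of 8 general astrocyte markers tested, 3 rose and 0 fell by edgeR, where 5.65% of all genes rose and 3.21% fell. Among those that rose was Aldh1l1 (64392) at a log2 fold change of 2.11 (SE 0.27, edgeR adjusted p = 0.00434). The other 2, Aldoc (24191, 0.92) and Gja1 (24392, 0.76), lost their calls in several fits without 1 library. Of the 10 microglia markers edgeR called 0, as did DESeq2, and 1 was higher at an unadjusted p under 0.05. In the fits that called more reactive genes, some microglia markers were called too. With the block 2 were lower and 1 higher, near the 15.7% of all genes that fell and 14.9% that rose. Without both replicate 1 libraries 2 were lower and 0 higher, where 8.11% of all genes fell and 8.48% rose. Ptprc, a leukocyte phosphatase, had 85.4, 26.9 and 22.2 CPM in differentiated 1, 2 and 5, against 144.9, 37.3 and 38.2 CPM in precursors 1, 2 and 5 (edgeR adjusted p = 0.607, 0.00226 with the block). Itgam, a microglial integrin, had 117, 51.9 and 52.1 CPM in differentiated and 174, 74.9 and 80.4 CPM in precursor libraries (edgeR adjusted p = 0.488, 0.00121 with the block). Ptprc and Itgam were highest in replicate 1 of each group. C1qb, the marker higher with the block, averaged 13.3 ± 2.36 CPM in differentiated and 9.1 ± 0.723 CPM in precursor libraries (SD, n = 3 each). Its edgeR adjusted p was 0.129, and 0.0214 with the block. Of the 10 markers, 6 had a negative log2 fold change. Cx3cr1 was lowest among precursors in precursor 1, at 4.9 CPM beside 8.23 and 9.24 CPM in precursors 2 and 5. Of 7 fibroblast and pericyte markers tested, edgeR without the block called 0 lower and 1 higher, Pdgfrb (edgeR adjusted p = 0.0265). There 3.21% of all genes fell and 5.65% rose. With the block 5 of these 7 were lower and 1 higher, where 15.7% of all genes fell and 14.9% rose. Without both replicate 1 libraries 2 were lower and 1 higher, where 8.11% of all genes fell and 8.48% rose. The part of these cells in the counts of reactive genes was not tested.

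**Figure D5:**
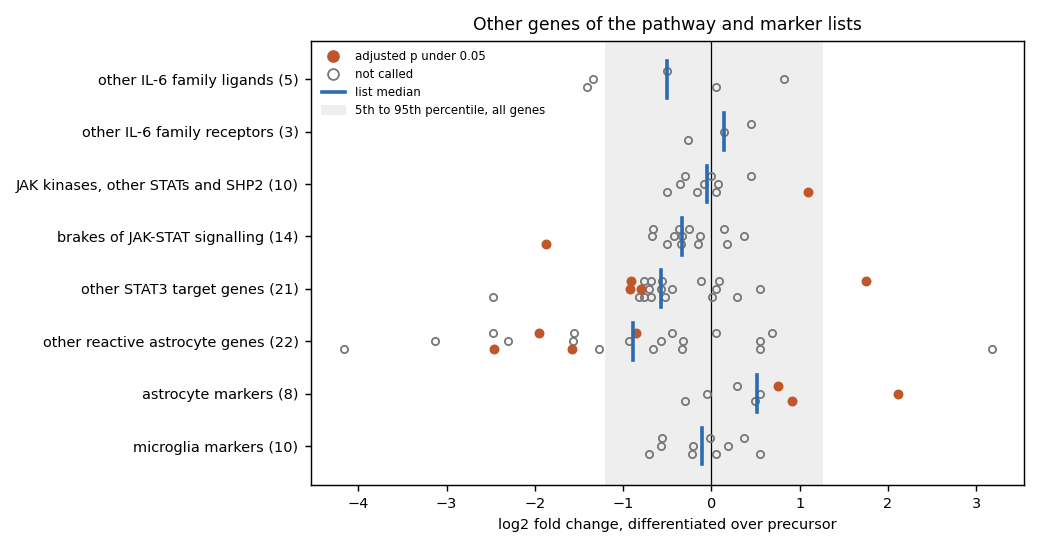
Each row is a list, with the number of genes tested in parentheses, and each point the log2 fold change, differentiated over precursor, of 1 gene. Filled points passed an edgeR adjusted p of 0.05, blue lines are list medians, and the grey band runs from -1.19 to 1.25, the 5th to 95th percentile of all genes tested. The medians lie at -0.57 for other STAT3 targets, -0.89 for reactive astrocyte genes and 0.52 for astrocyte markers.

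The genes whose profile over the 6 libraries was most like each of the 3 lower members were found by the root mean square difference of log2 CPM, centred on each gene's mean, among 14802 genes with at least 1 CPM in either group. Nearest to Socs3 were Cntn3 (54279, difference 0.13), Bcl11b (314423, 0.13), LOC108350698 (108350698, 0.16), Cxcl14 (306748, 0.16) and Scg2 (24765, 0.16), and Osmr was 36th, at 0.25. The other genes of the set were further off: Stat3 was 876th, Cntf 1743rd, Lifr 2756th, Il6st 7816th, Lif 8693rd, Cntfr 11999th and Serpina3n 13084th (1.22). Among the nearest to Lif were Aqp5 (25241, 0.55), Adh7 (171178, 0.57), Rarb (24706, 0.64) and Penk (29237, 0.64), with Serpina3n 8th at 0.68. Nearest to Serpina3n were Aqp5 (0.52), Rarb (0.68), Lif (0.68), Penk (0.69) and Slc18a2 (25549, 0.72). The profiles of Lif and Serpina3n were matched less closely than that of Socs3, and all share the same 6 libraries. Lif and Serpina3n were both chosen for being lower in these libraries. Their closeness to each other follows in part from that choice and is no separate result.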

How the data were processed

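Per the labels' protocols, RNA was taken up in ISOGEN and turned into libraries by Illumina's TruSeq Stranded kit for total RNA. Per the submitters' processing notes, the tools were StringTie 2.1.3b, HISAT2 2.1.0, Trimmomatic 0.38 and bcl2fastq 2.20.0, in no stated order. The build named there is human, whereas the table holds rat gene identifiers, so rat build, annotation and strand setting remain not given in the sources used here. The read counts deposited by the authors are whole and not normalized. The TPM values deposited by the authors scale reads by transcript length and a fixed total, of which the RNA Rn7sl1 took 24.0% to 38.8%. The deposited FPKM values were not used. No column belonged to another series.

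Counts were tested with edgeR 4.0.16 (quasi-likelihood, TMM, its low-count filter, robust) in R 4.3.3, differentiated against precursor, 3 against 3, with Benjamini-Hochberg adjustment over 17797 genes. A gene was called at an adjusted p under 0.05. The SE is the log2 fold change divided by the root of F. Alternatives used DESeq2 1.42.0, limma 3.58.1 on log2(TPM + 1) and log2(TPM + 0.1), other scalings, no filter, a replicate block and left-out libraries. The code was tested on simulated data. Deviations from group means correlated at 0.421, 0.197 and 0.272 within numbers 1, 2 and 5. Between the unlike numbers 2 and 5 they correlated at 0.1055 and 0.0987, and between replicate 1 and the others negatively. The numbers, which come from the titles, were taken to pair libraries, which these values show only weakly for 2 and 5. The genes and lists were chosen with earlier results of these data known. Named besides the set are all tested family ligands and receptors, called list genes (at most 4 a direction), defining glial markers, Serpina3 entries and the 5 nearest profiles, of which some are not reported here.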

Additional observations from a re-analysis of the deposited data

How the results depend on the processing

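Over all genes, 1005 rose and 571 fell. With the replicate block 2643 rose and 2797 fell, without both replicate 1 libraries 1529 and 1462, by limma on log2(TPM + 1) 487 and 1000, and on log2(TPM + 0.1) 509 and 1090. With library size alone 1006 fell and with DESeq2 1198. Leaving out 1 library gave 484 to 947 genes that rose and 148 to 561 that fell. Library size alone moved the median log2 fold change of all genes from -0.04 to -0.19, and TPM to -0.17. Of the 7 genes of the set not chosen for being lower, 6 were tested in the main fit and 1 fell, where 3.21% of all genes fell. The number was 2 with library size alone, RLE size factors, DESeq2 and no low-count filter. In these fits 1006, 596, 1198 and 534 of all genes fell. It was 3 with the replicate block and without both replicate 1 libraries, where 15.7% and 8.11% of all genes fell. When 1 library was left out it was 1 to 2, and 0 of the set's genes rose in any fit run. Stat3 passed at log2 fold changes of -0.72 (library size alone), -0.57 (RLE and DESeq2), -0.56 (no filter), -0.55 (replicate block) and -0.71 (without both replicate 1 libraries), and ranged from -0.69 to -0.49 when 1 library was left out. Lifr passed with the replicate block (-0.34) and Cntf without both replicate 1 libraries (-0.65). The block changed no other call among these genes. Il6st changed sign with library size alone (-0.10), on log2(TPM + 1) (-0.19) and log2(TPM + 0.1) (-0.20) and without both replicate 1 libraries (-0.0096), and ran from -0.05 to 0.24 when 1 library was left out. Cntfr changed sign without both replicate 1 libraries (-0.059) and ran from -0.15 to 0.52. Osmr kept its direction and call in all 14 alternatives. Lif was at -1.12 and Serpina3n at -2.11 on log2(TPM + 1), a scale that understates changes of low genes, and Lif ran from -3.95 to -2.72 when 1 library was left out. Socs3 was at -1.90 and -1.97 on the TPM scales and -1.89 without both replicate 1 libraries. Il6 was tested only without the low-count filter and by DESeq2. Causes were not tested.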

Other observations

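A few reactive astrocyte genes, chosen here after their values were seen, missed the threshold in edgeR without the replicate block and differed between replicates as well as between groups. Lcn2 (170496), an iron-binding acute-phase gene, had 34.6, 4.68 and 3.82 CPM in differentiated 1, 2 and 5, against 108, 65.7 and 67.0 CPM in precursors 1, 2 and 5. C3 (24232), the central complement component, had 94.7, 8.91 and 7.63 CPM in differentiated and 181, 70.1 and 78.8 CPM in precursor libraries. Steap4 (499991), a metalloreductase gene, had 78, 0 and 0 reads in differentiated and 1005, 150 and 170 reads in precursor libraries. In each of the 3 genes replicate 1 was the highest library of its group, and in C3 differentiated 1 also lay above precursors 2 and 5. The edgeR adjusted p was 0.126 for Lcn2, 0.396 for C3 and 0.177 for Steap4. With the replicate block, where 15.7% of all genes fell, it was 0.0172 for Lcn2, 0.0321 for C3 and 0.00351 for Steap4. The fit without both replicate 1 libraries was added once the data had been seen. It leaves out the highest library of each group for these genes. There 8.11% of all genes fell, and the edgeR adjusted p was 6.17e-05 for Lcn2, 9.68e-05 for C3 and 0.00171 for Steap4. The genes were chosen after their values were seen, so these p-values are a description and no test of a fall. The microglia markers Ptprc and Itgam were also highest in replicate 1 of each group, whereas Cx3cr1 was lowest among precursors in precursor 1. The part of microglia in these values was not tested. By CPM Serpina3n was also highest in replicate 1 of each group, at 8.68 CPM beside 7.11 and 7.15 CPM among precursors. On deposited TPM precursor 5 was its highest library, at 4.75 TPM against 4.07 TPM in precursor 1. Socs3 and Stat3 were lowest in replicate 1 among precursors.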
